A study of Homo sapiens with 4 samples.

Results

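The genes described here are those of glucose uptake, glycolysis, lactate export and the transcriptional response to low oxygen. A fixed list of 43 symbols was matched to the gene identifiers of the count data, and a gene was kept where its CPM (counts scaled to a common library size) exceeded 1 in at least 2 libraries. Of the 43 genes, 39 passed, each with a CPM above 1 in all 4 libraries, among 12559 retained genes of 23459 listed. The other 4 were PDK3 with 4 to 10 counts per library, PDK4 with 0 to 1, EGLN3 with 0 to 2 and CA12 with 0 to 3. The rule used the identity of a gene and its level, not its change, but the list was chosen with earlier results of these data known.

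RNA-Seq profiles were obtained from hTERT RPE-1, a wild-type, non-cancerous human line derived from retinal pigment epithelium and immortalized with telomerase. All cells were held for 48 h in medium with 0.1% fetal bovine serum and then received 200 μM merbarone, a catalytic inhibitor of type II DNA topoisomerases, for 240 min (the 4 h group, 2 libraries) or 480 min (the 8 h group, 2 libraries). Starvation and drug were thus common to both groups, untreated cells were not analysed here, and the time of exposure cannot be told apart from the further time in low serum. The question open to these libraries is which genes differed between the later and the earlier time. The libraries held 8064450 to 10324697 counts, and the biological coefficient of variation was 6.52%. Within each time the counts of the replicates differed by more than sampling noise, with a chi-square per degree of freedom of 2.67 at 4 h and 3.84 at 8 h. The line stands in for pigment epithelium only in part. The pigment epithelium markers RPE65, BEST1, RLBP1, TYR and TYRP1 had 0 to 7 counts per library and PMEL had 7 to 12. The transcription factors MITF and OTX2 and the keratins KRT8 and KRT18 were expressed. The defining markers of leukocytes, endothelium and photoreceptors had 0 to 8 counts, except the lysosomal gene CD68 at 53.8 to 75.0 CPM. Between the times KRT18 fell by 0.51 and CD68 rose by 0.39 on the log2 scale (edgeR adjusted p 3.72e-05 and 0.00298), and their part in the results below was not tested. In bulk RNA, fewer cells of a kind and less RNA per cell cannot be told apart.

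Glucose enters cells through facilitative transporters and is trapped by hexokinases, and phosphofructokinase then commits it to glycolysis. The lower enzymes carry it to pyruvate, which is either reduced to lactate and exported or passed to the pyruvate dehydrogenase complex, whose kinases restrain it. When oxygen is low, the alpha subunits HIF1A and EPAS1 escape hydroxylation by the EGLN enzymes and, with ARNT, bind hypoxia response elements at many genes of this pathway. The alpha-arrestins TXNIP and ARRDC4 respond to sugar phosphates and limit glucose uptake.

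The pathway did not move as one between 4 and 8 h of merbarone. SLC2A3, HK2, EPAS1 and ANKRD37 rose by more than 2-fold and PFKFB4 fell by more than 2-fold, while most of the abundant glycolytic enzymes differed little. The test was the quasi-likelihood test of edgeR over all 12559 genes, and a gene was called at a Benjamini-Hochberg adjusted p below 0.05. With an added requirement of an absolute log2 fold change above 1, 5 of 39 genes were called (12.8%), beside 5.33% of all genes tested. Of these, 4 were higher and 1 was lower at 8 h, beside backgrounds of 1.45% and 3.88%. By adjusted p alone 19 were called (48.7%), where 38.8% of all genes were. That share was near the background. Among them 12 were higher (30.8%, background 19.9%) and 7 lower (17.9%, background 18.9%). This split depended on scaling, since it was 8 higher and 9 lower with library size alone and 7 higher and 10 lower after correction for the trend of the fold change with mean abundance. It also depended on single libraries, with 7 higher and 4 lower without the first 4 h library and 9 higher and 2 lower without the second. The median log2 fold change was 0.09 for the 39 genes and 0.00 for all genes tested, and in 32 of 39 the change was below 0.5 in size. Both 8 h libraries lay outside the range of the 4 h libraries for 29 of 39 genes (74.4%), beside 69.7% of all genes.

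**Figure D1:**
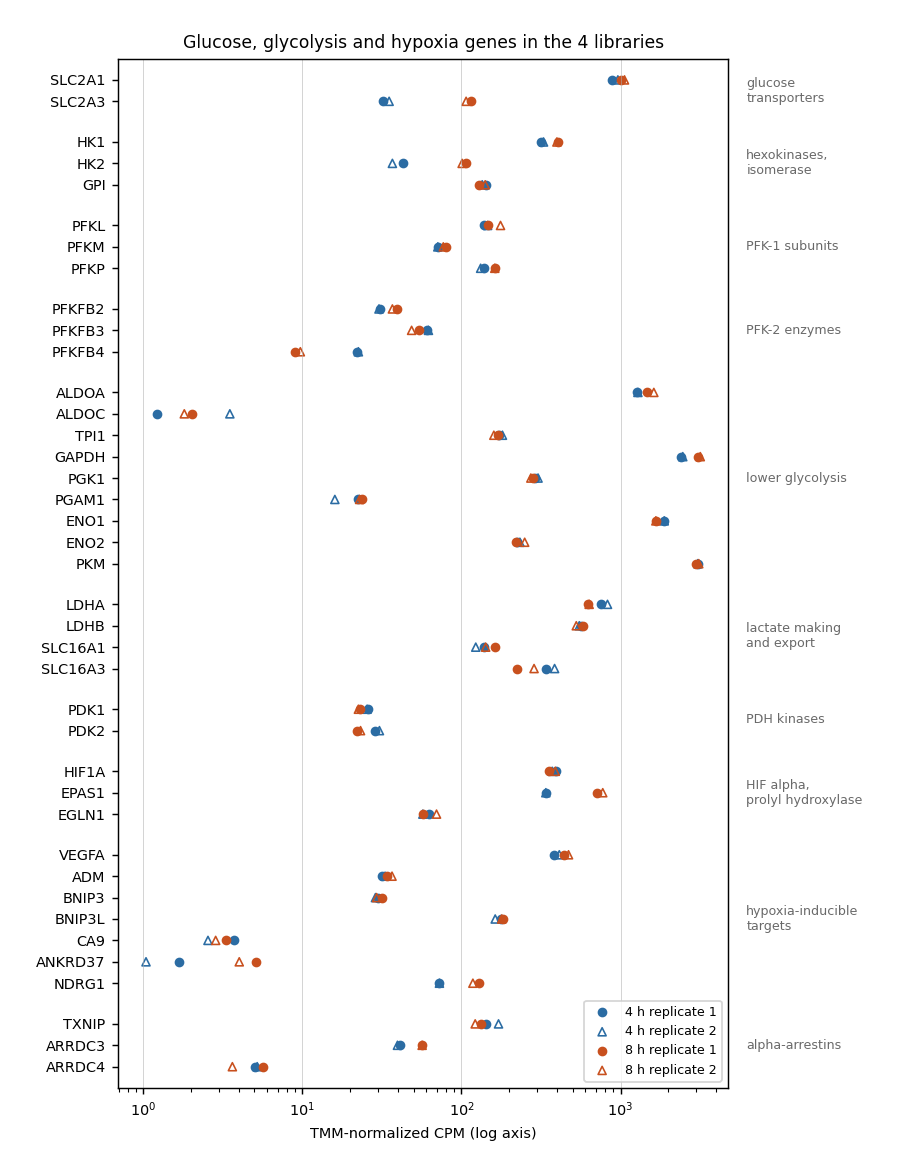
Normalized expression of the 39 genes (CPM with TMM factors, log axis) in each of the 4 libraries, ordered by role, with 1 point per library, the time given by colour and the replicate by shape. The points of SLC2A3, HK2, EPAS1 and ANKRD37 at 8 h lie to the right of those at 4 h, those of PFKFB4 lie to the left, and for most other genes the 4 points nearly coincide.

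The glucose transporters differed in size of change. SLC2A3 encodes the high-affinity transporter GLUT3 and lies on GRCh37 at chr12:8071826-8171603 on the minus strand. Its normalized expression was 32.2 and 35.1 CPM in the 4 h libraries and 115 and 107 CPM in the 8 h libraries. The groups did not overlap, with means of 33.7 ± 2.10 and 111 ± 5.54 CPM (SD, n = 2 libraries each). This was a log2 fold change of 1.72 with a standard error (SE) of 0.10 and an adjusted p of 4.11e-10 in edgeR. Its near-identical paralog SLC2A14 had 0 counts in each library, and 3 pseudogenes carry the name of SLC2A3. Only uniquely mapping reads were kept, so reads shared by both genes are missing and SLC2A3 may be undercounted. SLC2A1, the widely expressed transporter GLUT1, had 884 and 962 CPM at 4 h and 1000 and 1059 CPM at 8 h. The libraries of SLC2A1 did not overlap, but its log2 fold change of 0.16 (SE 0.07) had an adjusted p of 0.0831 in edgeR and did not pass. After the abundance-trend correction it was -0.02. On the RPKM scale, where CPM is divided by the length of the canonical transcript in kilobases, SLC2A1 made up 96.9% of the sum of SLC2A1 and SLC2A3 in each library of the 4 h group. The share was 90.8% and 91.8% in the 8 h group, so the transcript of GLUT1 was the more abundant at both times.

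Hexokinases phosphorylate glucose once it is inside. HK2, the inducible form (chr2:75061254-75120486, plus strand), stood at 43.0 and 36.8 CPM at 4 h and at 107 and 101 CPM at 8 h. All 8 h values exceeded all 4 h values, and HK2 rose by 2.61-fold (log2 fold change 1.38, SE 0.10, edgeR adjusted p 4.85e-09). HK1, the constitutive form, stood at 318 and 328 CPM at 4 h and at 404 and 398 CPM at 8 h. HK1 also rose, but by 0.31 on the log2 scale (SE 0.07, edgeR adjusted p 0.00194), and it lost the call after the abundance-trend correction (0.16, adjusted p 0.0831) and without the first 4 h library. HK2 accounted for 7.97% and 6.69% of the summed HK1 and HK2 level (RPKM) at 4 h and for 14.5% and 14.0% at 8 h. GPI, which converts glucose 6-phosphate to fructose 6-phosphate, had overlapping libraries and a log2 fold change of -0.04 (95% interval -0.21 to 0.14).

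Phosphofructokinase-1 is built from the subunits PFKL, PFKM and PFKP. All had both 8 h libraries at or above the 4 h range, beside 69.7% of all genes with both outside it, above or below. Only PFKP passed the test, from 139 and 132 CPM at 4 h to 163 and 162 CPM at 8 h (log2 fold change 0.27, SE 0.08, edgeR adjusted p 0.0123). It lost the call with library size alone, after the abundance-trend correction and without either 4 h library. The values for PFKL and PFKM were 0.18 (95% interval -0.01 to 0.37) and 0.14 (-0.05 to 0.33). SENP1 on the opposite strand of PFKM fell by 0.35 (edgeR adjusted p 0.0214).

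The bifunctional PFKFB enzymes make and break fructose 2,6-bisphosphate, the strongest activator of phosphofructokinase-1, and their transcripts moved in opposite directions. PFKFB4 (chr3:48555117-48599448, minus strand) had 22.0 and 22.5 CPM at 4 h and 8.95 and 9.71 CPM at 8 h. The 8 h values were far below the 4 h values, a 2.39-fold decrease with a log2 fold change of -1.25 (SE 0.16, edgeR adjusted p 8.23e-06). UCN2 overlaps PFKFB4 on the same strand, with 30 to 51 counts per library and a log2 fold change of -0.27 that did not pass (edgeR adjusted p 0.490). PFKFB3, the isoform with high kinase activity, stood at 60.8 and 62.0 CPM at 4 h and at 53.8 and 48.6 CPM at 8 h. PFKFB3 fell by 0.26 on the log2 scale (SE 0.10, edgeR adjusted p 0.0462), close to the threshold. PFKFB2, an isoform best known from heart, had 30.6 and 30.3 CPM at 4 h and 39.4 and 36.8 CPM at 8 h. It rose by 0.33 on the log2 scale (SE 0.12, edgeR adjusted p 0.0312). YOD1 lies on the opposite strand of PFKFB2 and rose by 0.92, and whether the counting used strand is not given in the sources used here. The calls of PFKFB2 and PFKFB3 were each lost in 5 of 13 alternatives. Of the summed PFKFB3 and PFKFB4 level (RPKM), PFKFB3 made up 68.3% in each 4 h library and 82.4% and 79.6% at 8 h.

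**Figure D2:**
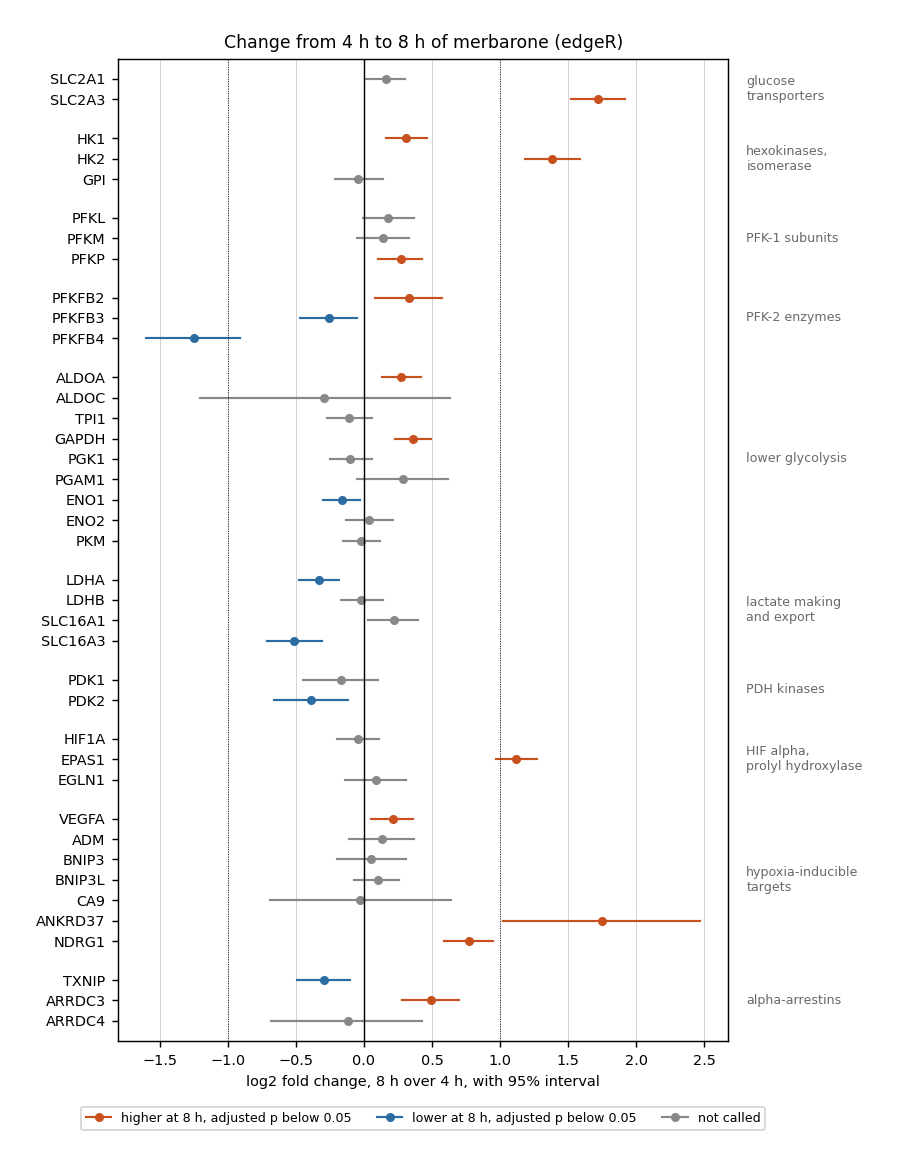
Log2 fold change of each of the 39 genes, 8 h over 4 h, with its 95% interval from edgeR, grouped by role. Points above 0 are higher at 8 h, dotted lines mark changes of 2-fold, and colour marks the 12 genes called higher and the 7 called lower at an adjusted p below 0.05. SLC2A3, HK2, EPAS1, ANKRD37 and PFKFB4 lie beyond the dotted lines.

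From aldolase to pyruvate kinase 9 genes were measured, of which 2 rose, 1 fell and 6 did not pass the test, with log2 fold changes from -0.29 to 0.36. The share called was 33.3%, beside 38.8% of all genes. The most abundant of the 39 transcripts per length were in this group, with mean levels at 4 h of 1897 RPKM for GAPDH, 1330 for PKM and 1052 for ENO1. By contrast, ALDOC had 1.47 and PGAM1 10.6 RPKM. PGAM1 has 13 pseudogenes of its name, and as only uniquely mapping reads were kept its level may be undercounted. GAPDH, which oxidizes glyceraldehyde 3-phosphate and is a common reference gene, had 2413 and 2462 CPM at 4 h and 3078 and 3172 CPM at 8 h. The groups did not overlap and GAPDH rose by 1.28-fold (log2 fold change 0.36, SE 0.06, edgeR adjusted p 1.65e-04). After the abundance-trend correction its change was 0.15 with an adjusted p of 0.0628 in edgeR, and 65 pseudogenes bear its name. ALDOA, the main aldolase, stood at 1269 and 1286 CPM at 4 h and at 1471 and 1619 CPM at 8 h. It rose by 0.27 on the log2 scale (SE 0.07, edgeR adjusted p 0.00344), a call lost with library size alone, after the abundance-trend correction and without the first 4 h library. ENO1, the main enolase, fell from 1864 and 1883 CPM to 1677 and 1667 CPM (log2 fold change -0.16, SE 0.06, edgeR adjusted p 0.0478). Over the alternatives its adjusted p lay between 1.76e-04 and 0.226, and 5 of 13 lost the call. PGK1, the first enzyme of the path to yield ATP, had 291 and 303 CPM at 4 h and 283 and 273 CPM at 8 h. It lay lower at 8 h in both libraries but did not pass (log2 fold change -0.10, SE 0.07, edgeR adjusted p 0.321), although it did with library size alone (-0.20, adjusted p 0.0376) and after the abundance-trend correction (-0.24, adjusted p 0.0174). PKM, which makes pyruvate, had overlapping libraries and a 95% interval of -0.15 to 0.12. Summed over the 9 genes, expression was 9326 and 9427 CPM at 4 h and 9884 and 10269 CPM at 8 h, and as a share of all counts it ranged only from 0.959% to 0.983%.

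At the step from pyruvate to exported lactate 2 of 4 genes fell, 0 rose and 2 were not called, where 18.9% of all genes were called lower and 19.9% higher. LDHA, the lactate dehydrogenase subunit that favours lactate formation, stood at 757 and 828 CPM at 4 h and at 626 and 635 CPM at 8 h. LDHA fell by 0.33 on the log2 scale (SE 0.07, edgeR adjusted p 0.00109), and the call was lost without the second 4 h library (adjusted p 0.0528). LDHB, the heart-type subunit, had overlapping libraries and a log2 fold change of -0.02 (95% interval -0.17 to 0.14). LDHA went from 43.6% and 46.6% of the summed LDHA and LDHB level (RPKM) at 4 h to 38.6% and 41.2% at 8 h. SLC16A3 encodes MCT4, the carrier that exports lactate from glycolytic cells, and had 341 and 385 CPM at 4 h and 225 and 286 CPM at 8 h. The groups did not overlap, although the 8 h libraries differed from each other, and SLC16A3 fell by 0.51 on the log2 scale (SE 0.10, edgeR adjusted p 3.17e-04) and was called in all 13 alternatives. CSNK1D on its opposite strand had a log2 fold change of 0.16 (edgeR adjusted p 0.112). SLC16A1, which encodes MCT1, had both 8 h libraries above the 4 h range, with a log2 fold change of 0.22 (SE 0.09, edgeR adjusted p 0.0583) that did not pass. Of the summed SLC16A1 and SLC16A3 level (RPKM), SLC16A1 held 21.8% and 18.1% in the 4 h group and 33.2% and 25.5% in the 8 h group.

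Of the pyruvate dehydrogenase kinases, PDK1 and PDK2 were measured. PDK2, the widely expressed kinase, stood at 28.8 and 30.5 CPM at 4 h and at 22.1 and 23.2 CPM at 8 h, and fell by 0.39 on the log2 scale (SE 0.13, edgeR adjusted p 0.0208). This call was lost in 4 of 13 alternatives. PDK1, the hypoxia-inducible kinase, had 25.8 and 25.5 CPM at 4 h and 22.9 and 22.5 CPM at 8 h. Its libraries were separate, but the log2 fold change of -0.17 (SE 0.13) did not pass (edgeR adjusted p 0.309) in this fit or in any of the 13 alternatives.

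Of the oxygen-sensing genes, EPAS1 changed and HIF1A and EGLN1 did not pass the test. EPAS1, the alpha subunit HIF-2α (chr2:46520806-46613836, plus strand), had 340.4 and 339 CPM at 4 h and 707 and 773 CPM at 8 h. The 4 h libraries were nearly equal, both 8 h libraries stood well above them, and EPAS1 rose by 2.18-fold (log2 fold change 1.12, SE 0.07, edgeR adjusted p 1.93e-09). After the abundance-trend correction the change was 0.96, still called but under the fold threshold. HIF1A, the alpha subunit HIF-1α, stood at 394 and 372 CPM at 4 h and at 354 and 389 CPM at 8 h. These libraries overlapped, with a log2 fold change of -0.04 (SE 0.08, 95% interval -0.20 to 0.11, edgeR adjusted p 0.673). On the RPKM scale EPAS1 formed 39.8% and 41.2% of the sum of both alpha subunits at 4 h and 60.5% and 60.3% at 8 h, so the order of their levels reversed. EGLN1, the main prolyl hydroxylase, had overlapping libraries and a log2 fold change of 0.09 (95% interval -0.14 to 0.31). These values are of mRNA, and the alpha subunits are regulated largely at the level of protein.

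**Figure D3:**
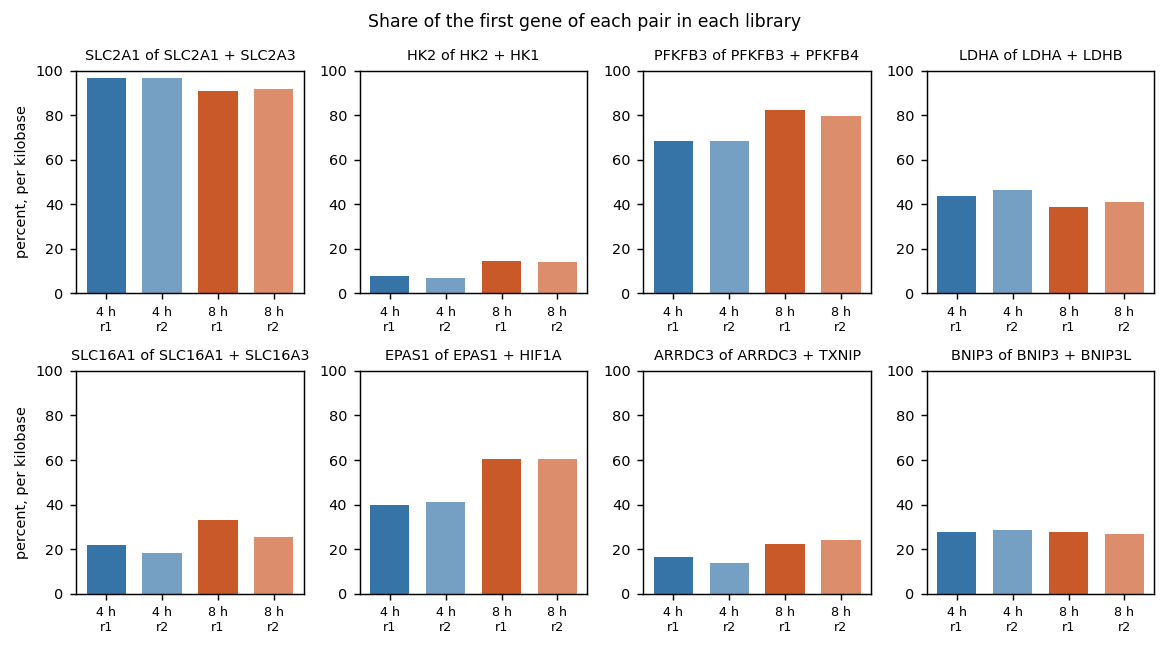
Share of the first gene in the summed level (RPKM) of a pair of related genes, in percent, with 1 bar per library, 2 at 4 h in blue and 2 at 8 h in orange. EPAS1 goes from about 40.5% to 60.4% of EPAS1 plus HIF1A and HK2 from 7.33% to 14.3% of HK1 plus HK2. BNIP3 stays between 26.7% and 28.4% of BNIP3 plus BNIP3L, a share that may be too low. BNIP3 has 44 pseudogenes of its name, and only uniquely mapping reads were kept.

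Of the 7 measured genes grouped here as hypoxia-inducible targets, 3 rose (42.9%, background 19.9%), 0 fell (background 18.9%) and 4 did not pass the test. The share of this group called in either direction, 42.9%, was near the 38.8% of all genes. The group is a label of the list and does not hold every hypoxia-inducible gene. PDK1, counted above with the kinases, was at -0.17 and not called, and 7 of all 39 genes fell, among them PFKFB4 at -1.25. ANKRD37, an ankyrin-repeat gene known chiefly as a hypoxia-induced transcript (chr4:186317175-186321782, plus strand), had 18 and 11 counts at 4 h and 48 and 31 at 8 h. In CPM these were 1.68 and 1.04 against 5.12 and 4.01, without overlap. The log2 fold change was 1.75, but at this low count its SE was 0.35 and its 95% interval 1.02 to 2.47 (edgeR adjusted p 5.79e-04). UFSP2 on the opposite strand had 199 to 300 counts and a log2 fold change of -0.03 (edgeR adjusted p 0.886). NDRG1, a stress-responsive gene induced by hypoxia, stood at 72.1 and 72.7 CPM at 4 h and at 129 and 118 CPM at 8 h. NDRG1 rose by 1.71-fold (log2 fold change 0.77, SE 0.09, edgeR adjusted p 1.20e-06) and kept its call in all 13 alternatives. VEGFA, the angiogenic growth factor, had 379.6 and 412 CPM at 4 h and 444 and 471 CPM at 8 h. It rose by 0.21 on the log2 scale (SE 0.07, edgeR adjusted p 0.0324), and 6 of 13 alternatives lost the call. The peptide hormone gene ADM, the mitophagy receptors BNIP3 and BNIP3L and the carbonic anhydrase CA9 had log2 fold changes of 0.13, 0.05, 0.10 and -0.03. For ADM, BNIP3 and BNIP3L the 95% intervals lay within 0.5 of 0, whereas that of CA9, at 22 to 40 counts, ran from -0.69 to 0.64. PNMA2 lies on the opposite strand of BNIP3L with 1082 to 2492 counts and fell by 0.59 (edgeR adjusted p 2.45e-05), and its part in the value of BNIP3L was not tested.

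The alpha-arrestins went different ways. TXNIP, which binds thioredoxin and restrains glucose uptake, had 143 and 171 CPM at 4 h and 133 and 122 CPM at 8 h. The 4 h libraries differed more from each other than the 8 h libraries did, and TXNIP fell by 0.29 on the log2 scale (SE 0.09, edgeR adjusted p 0.0160), a call lost without the second 4 h library (adjusted p 0.309). ARRDC3, which acts in receptor trafficking and energy balance, stood at 40.9 and 39.6 CPM at 4 h and at 56.3 and 56.6 CPM at 8 h. Its replicates were close, and it rose by 0.49 (SE 0.10, edgeR adjusted p 8.51e-04) under all 13 alternatives too. ARRDC4, the closest relative of TXNIP in its response to sugar, had 28 to 55 counts and a log2 fold change of -0.12 (95% interval -0.68 to 0.43).

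In all, 20 of 39 genes were not called. For 16 of them the 95% interval of the log2 fold change lay between -0.5 and 0.5. ALDOC, PGAM1, CA9 and ARRDC4 had wider intervals, which included changes larger than that. Non-overlapping libraries were seen in 10 of the 20 and in all 19 called genes. The share over all genes, 69.7%, covers called and uncalled genes together, so it is not a background for the 20 alone. The stricter glmTreat test of edgeR, which asks for a change beyond 2-fold, called SLC2A3 and HK2 alone among the 39 genes, and 0.669% of all genes.

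Ratios between related genes within a library do not depend on the scaling between libraries. Of 13 ratios planned, 12 could be computed, as EGLN3 was at 0 in some libraries, and 6 moved by more than 0.5 on the log2 scale. HK2 over HK1 rose in log2 ratio from -2.89 and -3.16 at 4 h to -1.92 and -1.97 at 8 h, a difference of 1.08. For EPAS1 over HIF1A the difference was 1.17, for PFKFB3 over PFKFB4 it was 0.99, for ARRDC3 over TXNIP 0.78 and for SLC16A1 over SLC16A3 0.73. The ratio of SLC2A1 to SLC2A3 was lower at 8 h by -1.56. These 6 pairs had non-overlapping libraries, as did LDHA over LDHB (-0.31) and ENO1 over ENO2 (-0.20), making 8 of the 12. With 2 libraries per time the two-sided exact permutation test cannot give a p below 0.33, which each of these 8 had. The ratio of BNIP3 to BNIP3L differed by -0.05, with an exact permutation p of 0.667.

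Promoter sequences are shown for the genes that changed by more than 2-fold and have an entry in the RefSeq promoter table of GRCh38.p14. SLC2A3 has none. Each is the 250 bases before the transcript start, 5′ to 3′ on the strand of the gene. Capitals mark the core letters of the hypoxia response element, ACGTG or GCGTG, on either strand, where ACGTG also lies within the E-box CACGTG. The regions are chr2:74833877-74834126 (plus) for HK2, chr3:48556804-48557053 (minus) for PFKFB4, chr2:46297157-46297406 (plus) for EPAS1 and chr4:185396591-185396840 (plus) for ANKRD37.
HK2: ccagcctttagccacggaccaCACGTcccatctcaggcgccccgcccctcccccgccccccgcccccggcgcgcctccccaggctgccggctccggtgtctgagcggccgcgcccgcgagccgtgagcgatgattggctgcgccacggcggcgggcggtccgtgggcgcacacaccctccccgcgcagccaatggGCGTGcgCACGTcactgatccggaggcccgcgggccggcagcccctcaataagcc
PFKFB4: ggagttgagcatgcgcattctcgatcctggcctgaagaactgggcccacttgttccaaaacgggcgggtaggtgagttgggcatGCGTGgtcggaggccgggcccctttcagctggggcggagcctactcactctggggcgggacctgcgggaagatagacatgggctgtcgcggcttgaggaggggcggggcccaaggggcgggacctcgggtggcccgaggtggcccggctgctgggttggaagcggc
EPAS1: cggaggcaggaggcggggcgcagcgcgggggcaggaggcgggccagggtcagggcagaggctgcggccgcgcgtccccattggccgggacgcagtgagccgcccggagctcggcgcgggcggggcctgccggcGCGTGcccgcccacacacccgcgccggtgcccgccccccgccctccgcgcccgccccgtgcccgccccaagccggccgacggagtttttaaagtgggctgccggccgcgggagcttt
ANKRD37: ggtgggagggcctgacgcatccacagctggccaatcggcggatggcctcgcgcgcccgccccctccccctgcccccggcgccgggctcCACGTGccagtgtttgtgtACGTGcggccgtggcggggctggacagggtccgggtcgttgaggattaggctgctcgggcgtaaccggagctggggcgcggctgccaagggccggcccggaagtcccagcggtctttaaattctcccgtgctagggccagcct
HK2 and ANKRD37, which rose, hold ACGTG, whereas EPAS1, which rose, and PFKFB4, which fell, hold only GCGTG in this window. Among the 33 of 39 genes with an entry, ACGTG occurred in 13 (39.4%) and either core in 21 (63.6%), beside 22.4% and 55.5% of the 14859 promoters of genes tested. Some genes hold more than 1 of the 14859 promoters, whereas each of the 33 genes has 1 here, so the units differ. Of the genes with an entry, ACGTG was found in 4 of 8 that rose, 1 of 7 that fell (14.3%) and 8 of 18 not called (44.4%). Either core was found in 5 of 8 that rose (62.5%), 5 of 7 that fell (71.4%) and 11 of 18 not called (61.1%). A match of 5 letters is a description of the sequence and not a bound site.

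A wider list of 136 genes of glucose use and oxygen sensing gave 104 that passed the CPM filter. Of these, 29 rose, 17 fell and 58 were not called by adjusted p alone (44.2% called, background 38.8%), and the split was 22 higher and 28 lower with library size alone. With the fold threshold 3 were called (2.88%, background 5.33%). The largest rise was that of KLHL24, a hypoxia-inducible kelch-family gene, from 36.5 and 33.4 CPM to 75.3 and 79.4 CPM (log2 fold change 1.14, SE 0.10, edgeR adjusted p 6.87e-08). ANGPTL4, a secreted inhibitor of lipoprotein lipase, fell from 8.51 and 11.3 CPM to 3.09 and 5.18 CPM (log2 fold change -1.29, SE 0.26, edgeR adjusted p 6.22e-04). MIR210HG, the host transcript of the hypoxia-induced miR-210, fell from 11.3 and 13.7 CPM to 5.97 and 4.27 CPM (log2 fold change -1.27, SE 0.22, edgeR adjusted p 1.65e-04). Within the other hypoxia-inducible genes as a group, 8 of 30 rose (26.7%, background 19.9%), 5 fell (16.7%, background 18.9%) and 17 were not called.

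The wider list includes branches off glycolysis, and no difference between branches was tested. In the pentose phosphate and hexosamine pathways 6 of 12 genes rose (background 19.9%), 2 fell (16.7%, background 18.9%) and 4 were not called. GFPT1, which commits fructose 6-phosphate to hexosamine synthesis, rose from 69.6 and 66.5 CPM to 117 and 122 CPM (log2 fold change 0.82, SE 0.09, edgeR adjusted p 5.76e-07). The glucosamine 6-phosphate deaminases, which run the reverse way, were split. GNPDA1 rose by 0.85 (SE 0.08, edgeR adjusted p 2.05e-07), from 84.9 and 86.9 CPM to 160.1 and 150.2 CPM. GNPDA2 fell by 0.62 (SE 0.14, edgeR adjusted p 0.00165), from 27.9 and 25.2 CPM to 17.9 and 16.4 CPM. None of these genes had overlapping libraries. Among glycogen enzymes 4 of 16 rose, 4 fell and 8 were not called, 25.0% in each direction beside backgrounds of 19.9% and 18.9%. PPP1R3B, which targets protein phosphatase 1 to glycogen, rose from 133 and 158 CPM to 258 and 271 CPM (log2 fold change 0.86, SE 0.09, edgeR adjusted p 2.75e-07). In pyruvate entry and the pyruvate dehydrogenase complex 3 of 10 genes rose, 3 fell and 4 were not called, 30.0% in each direction beside the same backgrounds. AK4, a mitochondrial adenylate kinase, had 7.11 and 4.16 CPM at 4 h and 3.41 and 2.72 CPM at 8 h (log2 fold change -0.86, SE 0.31, edgeR adjusted p 0.0309), and 5 of 13 alternatives lost its call. Of the oxygen-sensing genes 1 of 10 rose, 2 fell and 7 were not called (30.0% called, background 38.8%). The rise was that of ARNT, the partner of both alpha subunits, at 0.52 (SE 0.11, edgeR adjusted p 6.47e-04). The falls were those of CITED2 at -0.35 (SE 0.08, edgeR adjusted p 0.00139) and VHL at -0.26 (SE 0.10, edgeR adjusted p 0.0417).

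**Figure D4:**
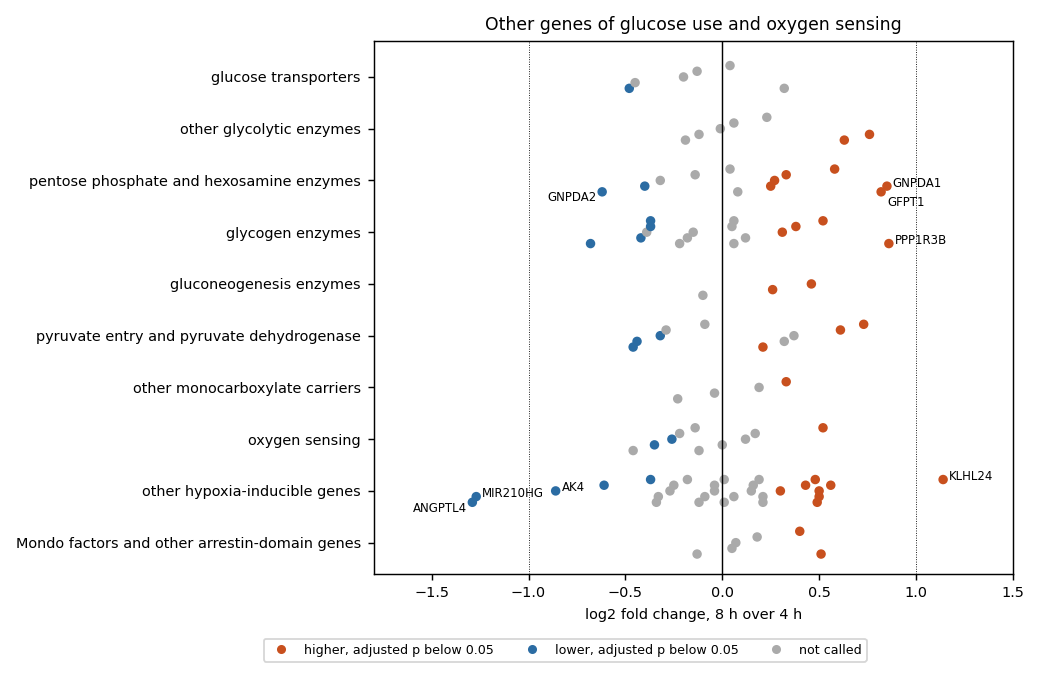
Log2 fold change, 8 h over 4 h, of the 104 tested genes of the wider list, with 1 point per gene in 10 groups and dotted lines at 2-fold. Colour marks the 29 genes called higher and the 17 called lower by edgeR, and only KLHL24, ANGPTL4 and MIR210HG lie beyond the dotted lines.

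Of the 19 called genes of the first list, 8 were called in the same direction in all 13 alternatives: SLC2A3, HK2, PFKFB4, EPAS1, ANKRD37, NDRG1, ARRDC3 and SLC16A3. The other 11 had changes below 0.5 in size on the log2 scale, and each lost its call in 1 to 6 of the alternatives. These 13 do not include the stricter glmTreat test, which called SLC2A3 and HK2 alone.

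**Figure D5:**
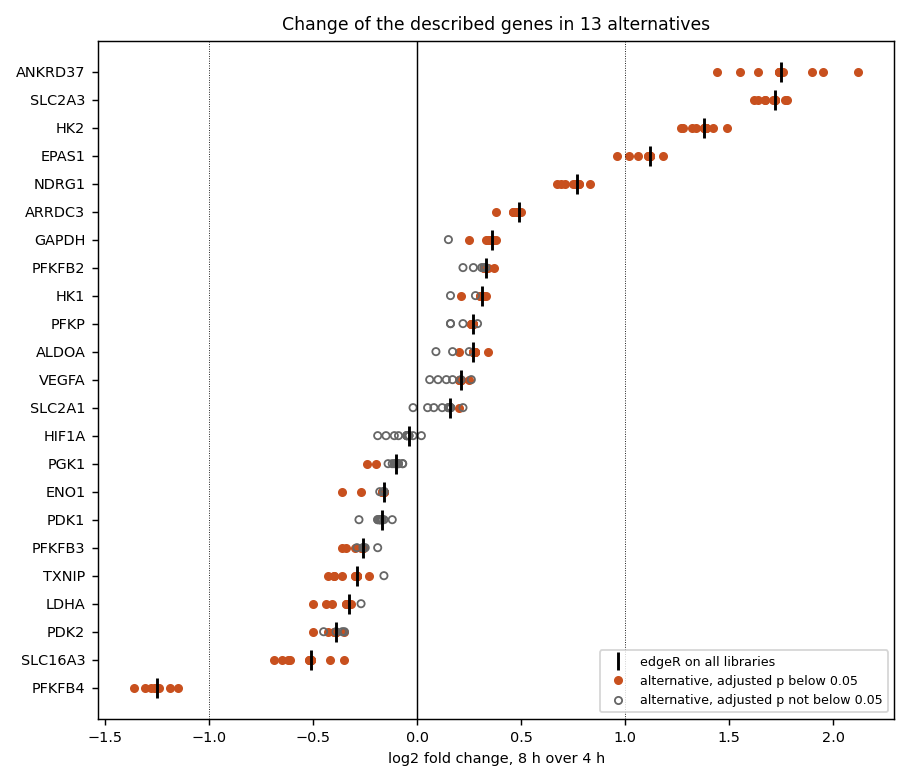
Log2 fold change of 23 genes in the edgeR fit (vertical mark) and in each of 13 alternatives of tool, scaling, filter, block and left-out library (circles, filled where the adjusted p was below 0.05). SLC2A3 stays between 1.62 and 1.78 and PFKFB4 between -1.36 and -1.15, while the ranges of SLC2A1 and HIF1A include 0.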

How the data were processed

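RNA-Seq was analysed in 2 libraries at 4 h and 2 at 8 h of merbarone, grouped by the sample labels. The authors made libraries from polyadenylated RNA with a stranded kit, mapped single reads to hg19 with Bowtie (1.2.0 in the submitters' processing notes), retained uniquely mapping reads, and for each gene deposited raw counts that were neither normalized nor filtered. The annotation, the counting tool and the use of strand are not given in the sources used here. Reads spanning an exon junction do not align without gaps and are missing, as are reads shared with near-identical copies, so that genes with many pseudogenes, such as GAPDH, are undercounted.

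Genes that exceeded a CPM of 1 in 2 or more libraries were retained, scaled by TMM and tested with edgeR 4.0.16 (quasi-likelihood test, R 4.3.3) with time as the only term. The p-values were adjusted by Benjamini-Hochberg over all 12559 genes. With 2 libraries per time, described by the study as biological replicates, they rest on a spread shared across genes. The tests were also run on simulated counts with known changes, drawn from the means and spread of these data. There edgeR recovered 83% of changes of 0.8 and 95% of changes of 1.5 on the log2 scale, with 6 false calls. Alternatives were Limma-Voom (limma 3.58.1), DESeq2 1.42.0, other scalings and filters, a correction for the trend with abundance, a replicate block, glmTreat and leaving out each library.

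Symbols and promoters came from RefSeq (GRCh38.p14), gene positions from GENCODE on GRCh37, and RPKM used the Ensembl canonical transcript. Values over libraries, fold changes and tests were given for genes called with the fold threshold, then for the 8 largest rises and 8 largest falls among the other called genes (of which 6 fell), and for SLC2A1, HK2, GAPDH, PGK1, LDHA, PDK1, HIF1A, VEGFA and TXNIP. Of the wider list, the genes called with the fold threshold and the 3 largest other rises and falls were given, except for an item that is not reported here. ARNT, CITED2 and VHL were added after their values were seen. The genes and lists were chosen with earlier results of these data known.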

Additional observations from a re-analysis of the deposited data

How the results depend on the processing

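The count of genes called with the fold threshold was 5 in every alternative of tool, scaling, filter and left-out library except the abundance-trend correction, where EPAS1 was below 2-fold and the count was 4. The stricter glmTreat test called 2. By adjusted p alone 19 genes were called with all libraries and 11 to 19 when 1 library was left out. The lowest count, 11, came without the first 4 h library (7 higher, 4 lower) and also without the second (9 higher, 2 lower). The corresponding counts for the wider list were 46 and 30 to 47, with 30 reached without the first 4 h library. DESeq2 called 14 of the 39 genes and 35 of the wider list.

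Scaling by library size alone moved the median of all genes to -0.11 and that of the 39 genes from 0.09 to -0.02. The median of the 39 genes lay 0.09 above that of all genes under either scaling. After the abundance-trend correction it lay 0.04 above. The abundance-trend correction turned SLC2A1 to -0.02, and HIF1A was 0.02 without the first 8 h library. SLC2A1 was called in 1 of 13 alternatives and HIF1A in 0. Of 416 comparisons of a named gene with an alternative, 367 kept direction and side of the threshold, 44 lost the call, 3 gained it and 2 changed sign. Same-numbered libraries had a correlation of deviations from their group means of 0.048 over all genes and 0.11 over genes with a mean count of at least 100, with only 2 numbers, and nothing in the labels ties them to a shared culture or day. With the replicate block 20 of the 39 genes and 55 of the wider list were called, 5 of the 39 with the fold threshold. The cause of these shifts was not tested. Depth limits ALDOC, CA9, ANKRD37 and ARRDC4, which had 11 to 55 counts per library.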

Other observations

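A list of 15 genes often used as references was compared between 4 and 8 h of merbarone on the TMM scale, and was chosen after values of these data had been seen. By the adjusted p of edgeR 5 were higher, 4 were lower and 6 were not called at 8 h, where 38.8% of all genes were called. The ribosomal protein gene RPL13A rose by 0.43 (SE 0.07) and the mitochondrial enzyme gene SDHA by 0.43 (SE 0.10). PPIA, which encodes cyclophilin A, fell from 47.0 and 45.7 CPM to 25.9 and 24.7 CPM (log2 fold change -0.87, SE 0.11, edgeR adjusted p 8.22e-06). The actin gene ACTB stood at 6403 and 5881 CPM at 4 h and at 5113 and 5482 CPM at 8 h, and fell by 0.21 (SE 0.06, edgeR adjusted p 0.0134). The change of PPIA was -0.98 with library size alone and -0.86 after the abundance-trend correction. Only uniquely mapping reads were kept, and what part of the PPIA reads this left was not tested. GUSB, with a log2 fold change of 0.18 (SE 0.09), and POLR2A, with -0.13 (SE 0.08), were not called.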
